A study of Homo sapiens with 32 samples.

Results

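The comparison described here was RPTEC SETD2KO-1 against RPTEC WT, 2 libraries against 2, so 4 of the 16 methylated RNA immunoprecipitation (MeRIP-seq) peak lists of the series. RPTEC is a line of human renal proximal tubule epithelial cells immortalized with telomerase. WT is the parental line, and SETD2KO-1 is 1 CRISPR/Cas9 clone of it without functional SETD2, so the effect of the knockout and the history of that clone cannot be told apart within this comparison. Both lines were grown in the same medium, without drug treatment, and their immunoprecipitated RNA was called against input RNA from the same lines. A second knockout clone (RPTEC SETD2KO-2), a line made from SETD2KO-1 by adding back full-length FLAG-tagged SETD2 and cloning again (RPTEC SETD2KO-1R), and the same 4 genotypes of the clear cell renal carcinoma line 786-O are set beside it. They show where peaks of the comparison were also called, and give whole-list shares and counts from comparisons of the same kind.

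N6-methyladenosine (m6A) is a methyl mark placed on adenosines of RNA during transcription by a complex whose catalytic subunit is METTL3, and it influences splicing, export, translation and decay of the marked transcript. SETD2 places the trimethyl mark on lysine 36 of histone H3 (H3K36me3) along transcribed gene bodies, and the m6A writer complex can be recruited to that mark. SETD2 is frequently inactivated in clear cell renal carcinoma, which arises from the proximal tubule. The comparison therefore asks at which transcripts the positions of m6A differ after SETD2 was removed from a non-malignant tubule line.

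The 4 lists were merged into 52681 regions, each a stretch covered without a gap by overlapping peaks. A region was named gained when both SETD2KO-1 libraries and neither WT library had a peak in it, and lost in the reverse case. By this rule 2696 regions were gained, 5.12% of all regions, and 1947 were lost, 3.70%. These words name a pattern of calls and not a tested change. A peak that is called in 1 line only can also follow from the amount of its transcript, and methylation and transcript amount cannot be told apart from the lists alone.

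Some of these regions lay over the first transcribed bases of genes that recur below, and RefSeq windows (GRCh38.p14, 250 bases before to 50 after the annotated start, in the direction of transcription) show what sequence they covered. They are the windows of members of the mesenchymal, basement membrane and epithelial lists whose start was covered by a gained or a lost region. Capitals mark the bases inside the region. TWIST2, a transcription factor of mesenchymal cells (chr2:238847835-238848134, plus strand), and LAMA4, the alpha 4 chain of laminin (chr6:112254518-112254817, minus strand), had a gained region there. SPINT1, an inhibitor of the epithelial serine proteases hepsin and matriptase (chr15:40844227-40844526, plus strand), and ITGA6, the alpha 6 subunit of laminin-binding integrins (chr2:172427336-172427635, plus strand), had a lost one.
TWIST2, gained: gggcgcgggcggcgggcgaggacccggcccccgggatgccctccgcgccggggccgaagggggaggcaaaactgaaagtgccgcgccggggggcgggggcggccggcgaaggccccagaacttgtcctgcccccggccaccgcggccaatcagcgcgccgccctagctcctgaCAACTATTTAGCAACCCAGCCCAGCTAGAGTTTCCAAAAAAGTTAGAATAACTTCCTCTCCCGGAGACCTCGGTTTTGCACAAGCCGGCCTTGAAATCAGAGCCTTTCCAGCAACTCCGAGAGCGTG
LAMA4, gained: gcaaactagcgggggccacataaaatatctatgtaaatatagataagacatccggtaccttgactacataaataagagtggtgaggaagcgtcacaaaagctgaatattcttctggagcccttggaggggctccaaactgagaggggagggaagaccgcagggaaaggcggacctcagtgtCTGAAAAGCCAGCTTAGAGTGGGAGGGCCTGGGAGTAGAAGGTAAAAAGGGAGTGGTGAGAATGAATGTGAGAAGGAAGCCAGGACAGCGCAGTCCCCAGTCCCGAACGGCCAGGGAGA
SPINT1, lost: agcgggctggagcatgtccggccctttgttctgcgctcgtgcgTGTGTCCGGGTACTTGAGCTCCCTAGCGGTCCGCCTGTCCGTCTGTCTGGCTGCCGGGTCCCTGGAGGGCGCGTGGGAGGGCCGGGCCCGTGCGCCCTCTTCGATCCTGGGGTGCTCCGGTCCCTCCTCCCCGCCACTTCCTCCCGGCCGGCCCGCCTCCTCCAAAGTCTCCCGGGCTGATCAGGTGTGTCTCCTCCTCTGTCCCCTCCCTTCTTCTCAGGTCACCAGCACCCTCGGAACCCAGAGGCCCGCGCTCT
ITGA6, lost: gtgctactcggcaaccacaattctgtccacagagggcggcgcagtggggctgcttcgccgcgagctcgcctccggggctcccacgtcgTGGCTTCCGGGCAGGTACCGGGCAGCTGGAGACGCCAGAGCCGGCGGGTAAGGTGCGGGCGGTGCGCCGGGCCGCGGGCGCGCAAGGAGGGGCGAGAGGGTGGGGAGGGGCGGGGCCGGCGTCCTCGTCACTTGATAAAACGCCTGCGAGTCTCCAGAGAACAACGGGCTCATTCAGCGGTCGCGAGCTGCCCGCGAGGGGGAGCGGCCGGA

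The gained region covered 127 of the 300 bases at TWIST2 and 119 at LAMA4, while the lost region covered 257 at SPINT1 and 212 at ITGA6. All 4 regions reached past the window into the transcribed side. The core of the m6A consensus, GGACT, was searched on both strands of the windows. It occurred in none of the TWIST2, SPINT1 and ITGA6 windows, and LAMA4 held it 2 times on the strand that is not transcribed. Across the 92 windows whose first 50 transcribed bases were touched by a gained region, 44.6% held GGACT on either strand. The figure was 48.1% of 79 windows for lost regions and 45.3% of all 22199 windows of protein-coding genes. Most of each window lies before the annotated start, and both strands were counted. These figures therefore describe the windows and do not show whether the regions themselves held the motif. Only 82 gained and 64 lost regions, 3.04% and 3.29% of their class, touched a gene start at all, against 7.23% of the regions called in all 4 libraries.

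The WT lists held 27238 and 23126 peaks, and the SETD2KO-1 lists held 24605 and 30614. The groups overlapped, and the log2 ratio of SETD2KO-1 over WT was 0.13 (exact permutation test, two-sided, p = 0.667, where 2 libraries against 2 cannot go below 0.333). A peak lay in 9090 and 8322 protein-coding genes in WT and in 8839 and 9333 in SETD2KO-1 (log2 ratio 0.06, exact permutation p = 0.667). The median peak was 403 and 376 bp long in WT and 406 and 363 bp in SETD2KO-1, so that the spread between replicates was larger than the difference of -5.00 bp (exact permutation p = 1.00). The files hold no read counts, and the depth behind a single peak is therefore unknown.

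The 2 libraries of a line shared fewer peaks than the totals imply. Of the 52681 regions, 26623 (50.5%) were called in 1 library only and 8351 in all 4. Regions called in 1 SETD2KO-1 library and in no WT library numbered 14741 (28%), so the gained ones made up 15.5% of the regions called in SETD2KO-1 alone. Regions called in 1 WT library and in no SETD2KO-1 library numbered 11882 (22.6%), and the lost ones made up 14.1% of those called in WT alone. The number of gained over lost regions was 1.38, and the longest list was that of SETD2KO-1 replicate 2. With the same number of peaks, 23126, taken from the top of each list by score, 1948 regions were gained and 1892 lost.

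Gained and lost regions resembled each other in size and rank, and both differed from the shared regions. The median gained region was 456 bp long (quartiles 361 and 617 bp) and the median lost region 464 bp (quartiles 370 and 595 bp). Regions called in all 4 libraries had a median of 764 bp. The peak score has no stated scale, so it was used only as a percentile within its own list, where 100 is the top. The mean percentile over the 2 calling libraries had a median of 40.1 for gained and 41.6 for lost regions, against 66.3 in SETD2KO-1 and 66.9 in WT for the shared regions. Most gained and lost regions thus ranked in the lower part of their lists. Regions called in any other pattern had medians of 39.9 in SETD2KO-1 and 38.2 in WT. The low rank was therefore shared by all regions not called in every library. A region merged from more lists also tends to be longer by construction. A mean percentile of 90 or more was reached by 5.93% of the gained and 3.70% of the lost regions.

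The 6 highest-ranked regions of each class lay in genes of varied function. The top gained region was in EDF1, a transcriptional coactivator, with percentiles of 99.9 and 99.9 in the 2 SETD2KO-1 libraries. It was followed by regions in PGD, an enzyme of the pentose phosphate pathway (99.9 and 99.7), CTNNA1, alpha-catenin (99.9 and 99.4), IGBP1 (99.7 and 99.3), the ribosome biogenesis factor PES1 (99.0 and 99.9) and the SR protein kinase SRPK1 (99.8 and 99.1). The top lost region was in NRDC, the metalloprotease nardilysin (mean percentile 99.9 in WT), ahead of the transcription elongation factor SUPT6H (99.8 and 99.8), the heparan sulphate polymerase EXT1 (99.5 and 99.9), the kinase MINK1 (99.7 and 99.7), the RNA-binding protein DAZAP1 (99.6 and 99.4) and RPL22, a ribosomal protein (99.9 and 98.6). Nearly all of these 12 regions were short, between 279 and 337 bp, with PES1 at 724 bp and RPL22 at 518 bp as the exceptions. The 6 lost ones were each called in 4 to 8 of the 8 786-O lists, and the 6 gained ones in 2 to 7. The position of the EDF1 region was chr9:136863414-136863702 and that of the NRDC region chr1:51840436-51840763 (hg38, both inside the gene body).

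Along the gene, the regions of both classes lay farther from the 3' end than the shared ones. The median position was 56.0% of the gene length from the 5' end for gained and 51.9% for lost regions, against 73.8% for regions called in all 4 libraries. Within 2000 bp of the 3' end lay 9.73% of the gained, 9.28% of the lost and 19.2% of the shared regions. Regions that were called in any other pattern had a median position of 54.7%, so this place was shared by all regions that were not called in every library. Exons and introns were not separated here. The strand was known for the genes in the RefSeq window table only.

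Gained regions lay outside annotated genes more often than lost ones. No gene of any type was annotated at the midpoint of 386 gained regions, 14.3% (95% Wilson interval 13.0 to 15.7), whereas this held for 124 lost regions, 6.37% (5.37 to 7.54), and for 3.93% of the shared regions (3.53 to 4.37). These intervals cover counting error only and treat regions as independent. Over whole lists, 4.97% and 5.30% of WT peaks and 8.53% and 6.41% of SETD2KO-1 peaks lay in no gene. The groups did not overlap, and the mean difference was 2.34 percentage points (exact permutation p = 0.333, the smallest possible). In the same way, 89.2% and 88.7% of WT peaks but 83.7% and 87.4% of SETD2KO-1 peaks lay in a protein-coding gene (difference -3.39 percentage points, exact permutation p = 0.333). SETD2KO-1 replicate 1 stood farthest from WT, and without it the difference was -1.56.

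Part of the gained regions outside genes formed runs. With a run set as at least 5 such regions of 1 class, each within 100 kb of the next, there were 7 gained runs that held 62 regions and 1 lost run of 7 regions. The most populated run lay on chr3:110698443-110874643, 197 kb from NECTIN3, the nearest protein-coding gene, which encodes a cell adhesion molecule. It held 14 gained regions, with no peak in either WT library, 18 and 17 peaks in SETD2KO-1, 12 and 11 in SETD2KO-2 and 14 and 11 in SETD2KO-1R. The 786-O lists had no peak there except for 2 and 2 in 786-O SETD2KO-2. Peaks were therefore present in every RPTEC line derived by cloning and absent from the parental line.

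A second run on chr22:16165155-16352448 showed a different set of libraries. It held 11 gained regions, with no peak in WT, 18 and 16 in SETD2KO-1, 11 and 5 in SETD2KO-2 and none in SETD2KO-1R. In 786-O it had no peak in WT, 14 and 17 in SETD2KO-1, 13 and 14 in SETD2KO-2 and none in SETD2KO-1R. All 8 knockout libraries of both cell lines had peaks in this stretch, and none of the 8 libraries with SETD2 did. A run on chr2:16812925-16882890 had the same arrangement at lower numbers, with 9 and 11 peaks in SETD2KO-1, 5 and 5 in SETD2KO-2, 6 and 2 in 786-O SETD2KO-1 and 3 and 1 in 786-O SETD2KO-2. The 8 WT and SETD2KO-1R libraries had no peak in it. These stretches were picked from the RPTEC SETD2KO-1 and WT lists alone, so the zeros of WT and the calls of SETD2KO-1 follow from the choice, and the calls of the other 12 libraries do not.

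Further along chromosome 2, between CYRIA and RAD51AP2, the run at chr2:17126342-17402786 held 15 and 21 peaks in SETD2KO-1 against 1 and 1 in WT. It also held 14 and 13 peaks in SETD2KO-2 and 15 and 11 in SETD2KO-1R, so the add-back line did not resemble WT there, whereas in 786-O the 4 knockout libraries had 17 to 27 peaks and the 4 others none. The run on chromosome 1, between the genes for the tumour necrosis factor family ligands FASLG and TNFSF18, was less distinct, with 11 and 8 peaks in WT and 21 and 26 in SETD2KO-1. The gained runs of 32.9 and 36.9 kb, on chromosomes 2 and 3, held 7 to 10 peaks in SETD2KO-1 and at most 1 in WT. The lost run lay on chr11:75041140-75151096, directly beside SLCO2B1, the gene for an organic anion transporter. It held 18 and 16 peaks in WT, 2 and 1 in SETD2KO-1, none in SETD2KO-2 and 9 and 7 in SETD2KO-1R, while in 786-O it held 3 and 7 in WT, 4 and 4 in SETD2KO-1, 4 and 3 in SETD2KO-2 and none in SETD2KO-1R.

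**Figure D1:**
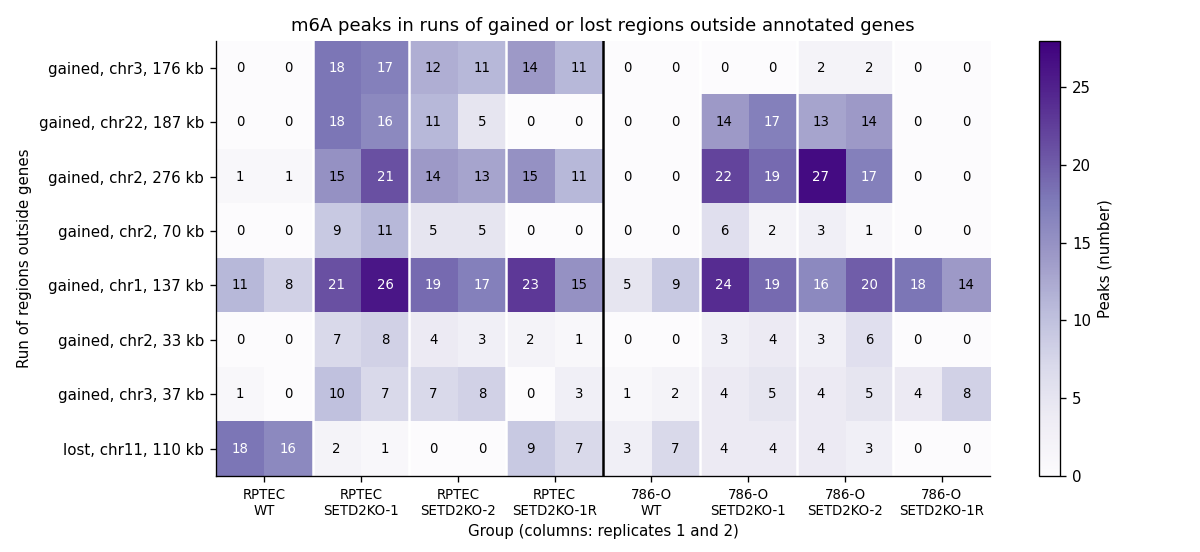
Number of m6A peaks in the 7 gained runs and the 1 lost run of regions outside annotated genes (rows, with chromosome and span), in replicates 1 and 2 of the 8 groups (columns; the black line parts RPTEC from 786-O). The run of 187 kb on chromosome 22 has 5 to 18 peaks in every SETD2KO-1 and SETD2KO-2 library of both cell lines and none in the WT and SETD2KO-1R libraries.

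Chromosome X stood apart from the autosomes. Of its 1731 regions, 170 were gained (9.82%) and 19 lost (1.10%), that is, 8.95 gained regions for each lost one. On the 22 autosomes the gained share ran from 2.94% to 6.44% and the lost share from 2.78% to 5.18%. The gained regions of X were not confined to 1 stretch, and each of its 16 bins of 10 Mb held more gained than lost regions. Among 388 protein-coding genes of X with a region, 99 (25.5%) had a gained region and 11 (2.84%) a lost one. At the other end, chromosome 19 had 97 gained and 171 lost regions (2.94% and 5.18%), and chromosomes 14, 16 and 17 also had more lost than gained regions.

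**Figure D2:**
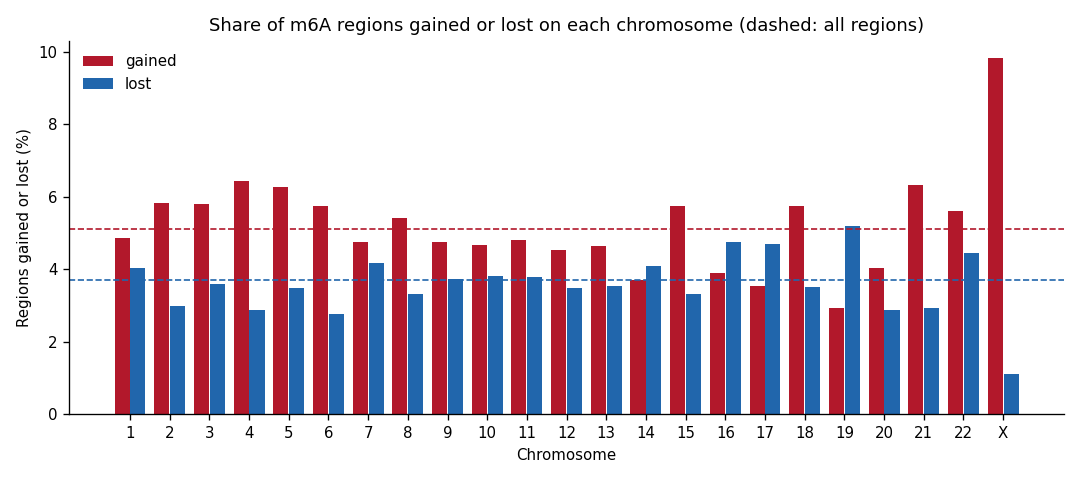
Percent of the regions of each chromosome that were gained (red) or lost (blue) in RPTEC SETD2KO-1 against WT; dashed lines give the shares over all regions, 5.12% and 3.70%. Chromosome X has the highest gained share, 9.82%, and the lowest lost share, 1.10%, and chromosome 19 the lowest gained share, 2.94%.

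The same was seen in the whole lists. Peaks on X made up 2.63% and 2.36% of the WT lists and 4.17% and 3.81% of the SETD2KO-1 lists, a mean of 2.49% ± 0.19 (SD, n = 2) against 3.99% ± 0.26 (SD, n = 2). The difference of 1.49 percentage points was larger than the spread of either group (exact permutation test, two-sided, p = 0.333, the smallest possible), and it lay between 1.31 and 1.67 with any 1 of the 4 libraries left out. SETD2KO-2 had 3.56% and 3.78%, and SETD2KO-1R 2.41% and 2.43%, between the values of the WT libraries. Over all 8 RPTEC libraries the 4 knockout libraries exceeded the 4 others by 1.37 percentage points. The 8 libraries come from 4 lines, 1 of them derived from another, so this difference is given without a test. X was singled out after its counts had been seen. In 786-O the share was 2.83% and 2.82% in WT and 3.05% and 3.04% in SETD2KO-1. Values that bear on the number of X chromosomes per cell were not analysed here.

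**Figure D3:**
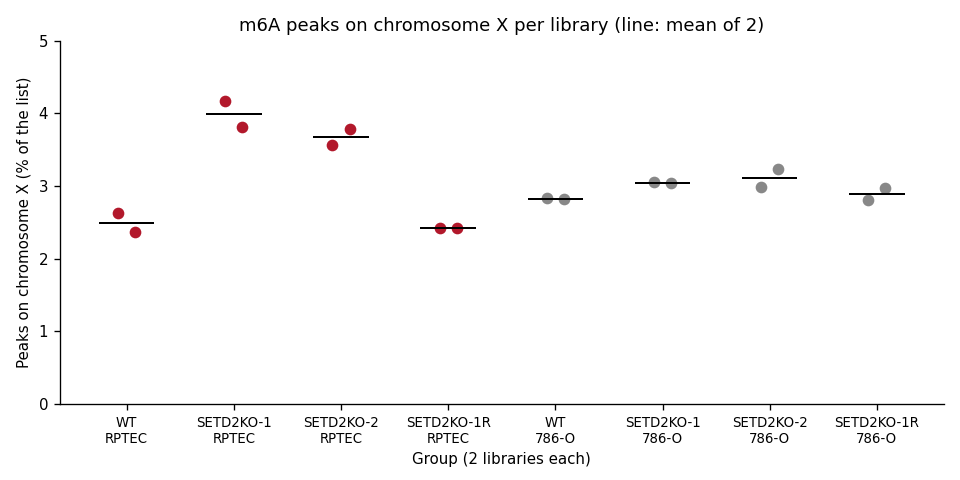
Percent of each peak list that lies on chromosome X, for 2 libraries (points) and their mean (line) in the 8 groups of RPTEC (red) and 786-O (grey). The RPTEC SETD2KO-1 libraries, 4.17% and 3.81%, and the SETD2KO-2 libraries lie above all other lists.

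Of 11257 protein-coding genes with a region, 1640 had a gained region (14.6%) and 1403 a lost one (12.5%), and 223 had both. Most had 1: 317 genes had at least 2 gained and 256 at least 2 lost regions. The 8 genes with the most gained regions all belonged to the gamma-protocadherin (PCDHG) cluster on chr5:141330514-141512975, whose 22 adhesion genes share their last exons, so a peak there cannot be given to 1 of them. Counted once, the cluster held 50 regions, of which 15 were gained and none lost. It had 3 and 4 peaks in WT and 37 and 33 in SETD2KO-1, with 21 and 30 in SETD2KO-2 and 12 and 14 in SETD2KO-1R. The lists of the other RPTEC lines thus lay between those of SETD2KO-1 and WT.

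Outside this cluster, which was set aside after the counts were seen, the 8 genes with the most gained regions were CSMD2 (9), ABTB3 (8), COL5A1, TENM3 and ZNF469 (7 each), COL6A3, SORCS2 and CDH13 (6 each). Several encode large matrix or adhesion proteins. COL5A1, the alpha 1 chain of type V collagen, had 17 regions. COL6A3, the alpha 3 chain of type VI collagen, also had 17, and its 6 gained regions had a mean percentile of 69.6. TENM3, a teneurin with a role in neuronal wiring, had 21 regions, and CDH13, the GPI-anchored T-cadherin, had 80, of which 6 were gained and 2 lost.

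The 8 genes with the most lost regions were NXN (10), SIPA1L3 and PTPRJ (7 each), UBE2D2, SNX29 and MACF1 (6 each), LPP and HSPG2 (5 each). NXN, nucleoredoxin, had 34 and 43 peaks in WT and 16 and 17 in SETD2KO-1, with 20 and 35 in SETD2KO-2 and 23 and 30 in SETD2KO-1R. UBE2D2, a ubiquitin-conjugating enzyme, had 14 and 26 peaks in WT and 6 and 2 in SETD2KO-1, and 1 to 6 in the other 4 RPTEC libraries. HSPG2, the basement membrane proteoglycan perlecan, had 17 and 11 peaks in WT and 3 and 11 in SETD2KO-1, so its libraries overlapped. The lost regions were a minority of the regions in each of the 8 genes. WNT7A and WNT7B, which encode Wnt ligands and were named after their values were seen, had 5 and 4 lost regions, none gained, and fewer peaks in both SETD2KO-1 libraries than in either WT library. WNT7A had 15 and 10 peaks in WT and 4 and 6 in SETD2KO-1, and WNT7B had 17 and 11 against 3 and 8.

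Among genes with both kinds of region, NXN (1 gained, 10 lost), CDH13 (6 and 2), MICAL2 (5 and 3), PTPRJ (1 and 7) and LPP (2 and 5) had the most. MICAL2, an actin-oxidizing enzyme, had 16 and 13 peaks in WT and 18 and 18 in SETD2KO-1, and CDH13 had 40 and 27 against 42 and 51. In the case of LPP, a focal adhesion protein, the counts were 14 and 15 in WT and 13 and 20 in SETD2KO-1. The groups overlapped in LPP, and SETD2KO-1 had more peaks in both libraries of MICAL2 and CDH13.

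Whole genes also switched between having peaks and having none. Of 11285 protein-coding genes with a peak in any of the 4 libraries, 458 (4.06%) had peaks in both SETD2KO-1 libraries and in neither WT library, and 275 (2.44%) had the reverse. At least 3 peaks in each of the 2 calling libraries were present in 37 of the former and 9 of the latter. With equal numbers of peaks per list, the counts were 393 and 322.

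CSMD2, a large transmembrane protein with complement-control domains, had no peak in WT and 12 and 24 in SETD2KO-1. It had 2 and 1 in SETD2KO-2 and none in SETD2KO-1R or in any 786-O list, so most of its peaks were found in 1 clone. SORCS2, a receptor of the sortilin family, had no peak in WT, 13 and 10 in SETD2KO-1, 14 and 5 in SETD2KO-2 and none in SETD2KO-1R. For ZNF469, a zinc-finger gene mutated in brittle cornea syndrome, these values were none, 7 and 10, 8 and 9, and then 0 and 1. In these last 2 genes both knockout clones had peaks, and the WT and add-back libraries had at most 1.

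Other genes with peaks in SETD2KO-1 and none in WT differed in how the second clone and the add-back line were called. COL5A1 had no peak in WT and 11 and 13 in SETD2KO-1. It had none in SETD2KO-2, yet 15 and 20 in SETD2KO-1R, the line made from SETD2KO-1. TENM3 had no peak in WT and 16 and 12 in SETD2KO-1, with 10 and 7 in SETD2KO-2 and 20 and 22 in SETD2KO-1R. FBXL7, an adaptor of a ubiquitin ligase, had 7 and 6 peaks in SETD2KO-1 and none in the other 6 RPTEC libraries, but 6 to 13 in each 786-O list. NEK10, a kinase of the NIMA family, had 8 and 9 peaks in SETD2KO-1 and none in WT, with 8 and 4 in SETD2KO-2 and 1 and 0 in SETD2KO-1R. NCAM1, the neural cell adhesion molecule, had 7 and 5 in SETD2KO-1 and none in WT, with 5 and 6 in SETD2KO-2 and 4 and 2 in SETD2KO-1R, whereas in 786-O it had 15 and 17 in WT and 0 to 2 in the other libraries.

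Counted over all 458 such genes, 169 (36.9%) had peaks in both SETD2KO-2 libraries and 161 (35.2%) in both SETD2KO-1R libraries, against 59.9% and 73.0% of all 11285 genes. The SETD2KO-1R lists, with 29154 and 31207 peaks, were longer than those of SETD2KO-2, with 26270 and 19249. Peaks in both SETD2KO-2 and in neither SETD2KO-1R library were found for 63 genes (13.8%, against 1.77% of all genes), the pattern of SORCS2. Peaks in both SETD2KO-1R and in neither SETD2KO-2 library, as in COL5A1, were found for 34 (7.42%, against 4.53%), and peaks in none of the 4 for 50. Of the 275 genes of the reverse kind, 118 (42.9%) had peaks in both SETD2KO-1R libraries and 49 (17.8%) in both SETD2KO-2 libraries. In 48 of them (17.5%) both SETD2KO-1R libraries and neither SETD2KO-2 library had peaks, and 6 (2.18%) had the opposite. Since SETD2KO-2 and SETD2KO-1R differ from WT in more than SETD2, these are counts of calls and give no test.

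ZNF471, a KRAB zinc-finger gene, had 4 and 4 peaks in WT, in 4 regions that were all lost, and none in the other 6 RPTEC libraries, while each 786-O list had 2 to 5 peaks. TSGA10, a gene named as testis-specific, had 5 and 7 peaks in WT, none in SETD2KO-1, 2 and 0 in SETD2KO-2 and 5 and 6 in SETD2KO-1R. RIMS1, a presynaptic scaffold, had 7 and 3 in WT, none in SETD2KO-1, 2 and 1 in SETD2KO-2 and 20 and 13 in SETD2KO-1R. CHRM3, a muscarinic acetylcholine receptor, had 5 and 2 in WT and none in the other 6 RPTEC libraries. TSGA10 and RIMS1 thus had peaks again in the add-back line, and ZNF471 and CHRM3 did not.

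**Figure D4:**
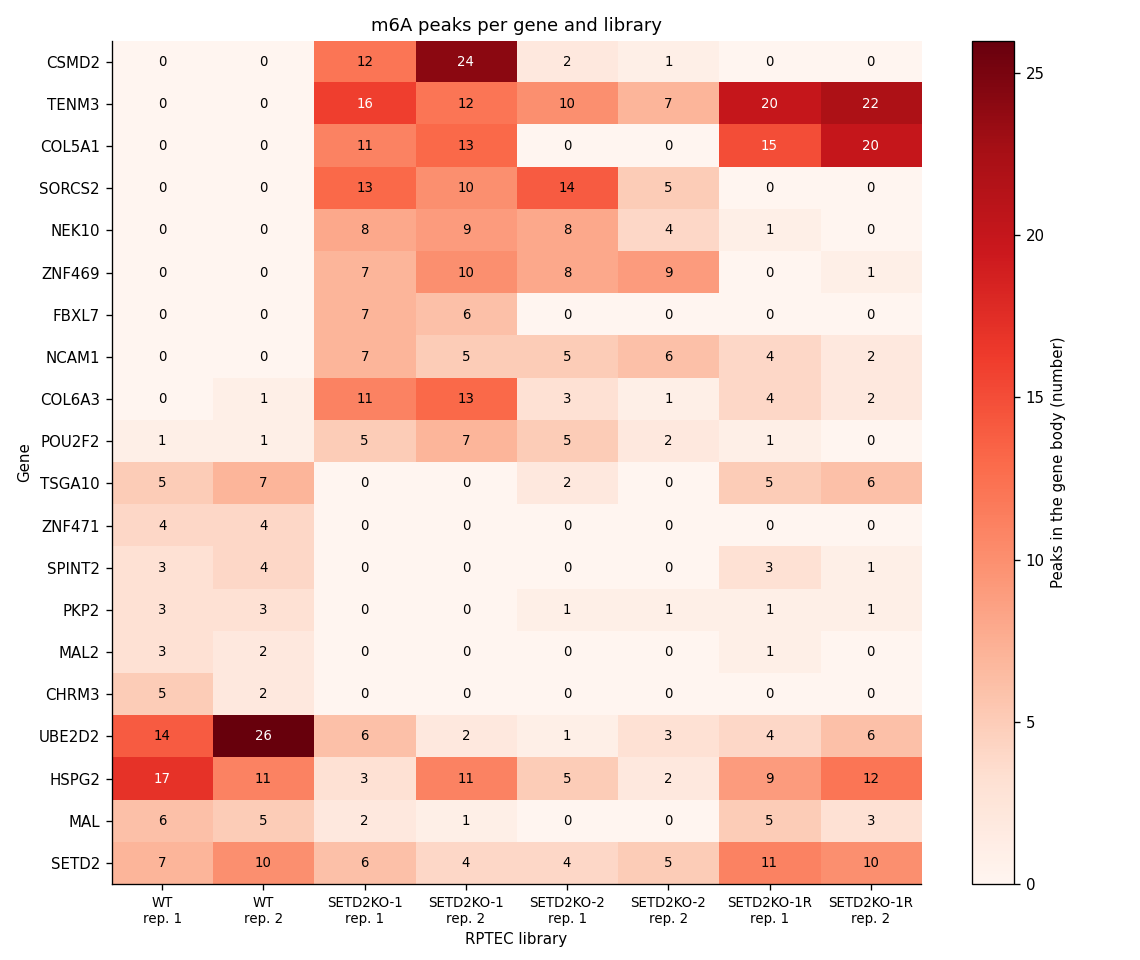
Number of m6A peaks in the body of 20 genes (rows) in each of the 8 RPTEC libraries (columns; darker for more peaks, the number printed in each cell). CSMD2 to COL6A3 have peaks in both SETD2KO-1 libraries and at most 1 in a WT library, TSGA10 to CHRM3 have peaks in WT and none in SETD2KO-1, and COL5A1 has 11 to 20 peaks in SETD2KO-1 and SETD2KO-1R and none in the other 4 libraries.

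Members of 16 gene lists were counted against the shares over all protein-coding genes with a region. The study had reported epithelial-mesenchymal transition and complement pathways among RPTEC genes whose m6A and expression followed SETD2 status. It also showed MAL, a member of the epithelial list, as a locus with less m6A in the knockout. The lists were chosen with this known, so their counts are not independent of it. The list of mesenchymal and epithelial-mesenchymal transition (EMT) genes leaned to gained regions: 18 of its 45 members with a region had a gained one (40.0%, against 14.6% of all genes) and 7 a lost one (15.6%, against 12.5%). These members carried more regions than most genes, a median of 6 against 3, which gives each more chances of a call. Over regions, 39 of 340 were gained (11.5%, against 4.50% of all regions in protein-coding genes) and 8 lost (2.35%, against 3.76%). COL5A1 and COL6A3 held 13 of the 39. With equal numbers of peaks per list, 16 members had a gained and 6 a lost region, of 45, where 11.6% and 12.7% of all genes did. Without WT replicate 2, 20 members had a gained and 22 a lost region, while 2217 and 4339 of all genes did.

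The gained members included the collagens COL1A1, COL5A1, COL6A1, COL6A2 and COL6A3, the fibrillins FBN1 and FBN2, and the cross-linking enzymes LOXL1 and LOXL2. VIM, the intermediate filament protein vimentin, had a gained region with percentiles of 96.4 and 95.1. However, it had 3 and 0 peaks in WT and 3 and 3 in SETD2KO-1, so the gene was not without peaks in WT. MMP14, a membrane-bound matrix protease, had 1 and 1 peaks in WT and 3 and 3 in SETD2KO-1, with its gained region at a mean percentile of 94.3. The 2 gained regions of COL6A1 ranked at a similar height, and the mean percentile was 88.5 for THBS1, thrombospondin 1. TWIST2 had 5 gained regions and 3 and 3 peaks in WT against 10 and 11 in SETD2KO-1, and ZEB1, an EMT transcription factor, had 13 and 11 against 19 and 19. CDH11, the mesenchymal cadherin 11, had no peak in WT and 3 and 1 in SETD2KO-1.

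The lost regions of this list lay in TGFB2 (mean percentile 81.6), INHBA (81.5), FN1 (76.3), AXL (63.1), TGFBR2, TPM1 and LOXL2. TGFB2 and INHBA encode ligands of the transforming growth factor beta family, TGFBR2 one of its receptors, FN1 fibronectin and AXL a receptor tyrosine kinase. FN1 had 3 and 2 peaks in WT and 2 and 5 in SETD2KO-1, so its groups overlapped. Of the 39 gained regions of the list, 12 and 5 were called in the SETD2KO-2 libraries and 22 and 21 in the SETD2KO-1R libraries. Of all 2033 gained regions in protein-coding genes these libraries called 954 and 500, and 937 and 819. The 7 gained regions of COL5A1, none of them called in SETD2KO-2, are part of the list's count.

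Epithelial junction and identity genes showed the opposite balance. Of 34 members with a region, 15 had a lost one (44.1%) and 4 a gained one (11.8%), at a median of 3 regions per member, equal to that of all genes. Over regions, 19 of 201 were lost (9.45%) and 4 gained (1.99%). The summed number of peaks over the list was 119 and 120 in WT and 73 and 88 in SETD2KO-1, with 69 and 63 in SETD2KO-2 and 98 and 97 in SETD2KO-1R. The SETD2KO-1 libraries lay below both WT libraries although 1 of them had the longest list of the 4. With equal numbers of peaks per list the counts of members were the same, 15 and 4 of 34. With the upper 50% by score, 9 members had a lost and 3 a gained region, of 28. Without SETD2KO-1 replicate 1 or 2, 17 or 16 members had a lost and 12 or 11 a gained region. In those settings 5323 and 4113 of all genes had a gained one.

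Tight junction genes with a lost region were TJP1, the scaffold protein ZO-1, CLDN2, MARVELD2 (tricellulin) and PATJ, a polarity protein with 12 and 20 peaks in WT and 3 and 5 in SETD2KO-1. PARD3, another polarity protein, had 14 and 17 against 10 and 8. Among desmosome and adherens junction genes, PKP2, plakophilin 2, had 3 and 3 peaks in WT and none in SETD2KO-1. CTNND1 and CTNNA1, which encode catenins, had 1 gained and 1 lost region each. KRT18 had a lost region at a mean percentile of 94.6, and KRT8, its partner keratin, a gained one at 92.1.

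The 5 members with peaks in both WT and in neither SETD2KO-1 library were PKP2, MARVELD2, SPINT2, MAL2 and ESRP2. SPINT2, an inhibitor of epithelial serine proteases, had 3 and 4 peaks in WT and none in the 4 knockout libraries, and it had 3 and 1 in SETD2KO-1R. Its lost region (chr19:38291600-38291927) had percentiles of 72.4 and 88.7 in WT. MAL, a proteolipid of apical transport, had 6 and 5 peaks in WT, 2 and 1 in SETD2KO-1, none in SETD2KO-2 and 5 and 3 in SETD2KO-1R, with lost regions at chr2:95026562-95027050 and chr2:95046382-95046865. MAL2, its relative, had 3 and 2 in WT and none in the 4 knockout libraries, with 1 and 0 in SETD2KO-1R. ESRP2, a splicing factor of epithelial cells, had 2 and 1 in WT, none in the 4 knockout libraries and 2 and 3 in SETD2KO-1R. CDH1, which encodes E-cadherin, and EPCAM had no peak in any RPTEC library.

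**Figure D5:**
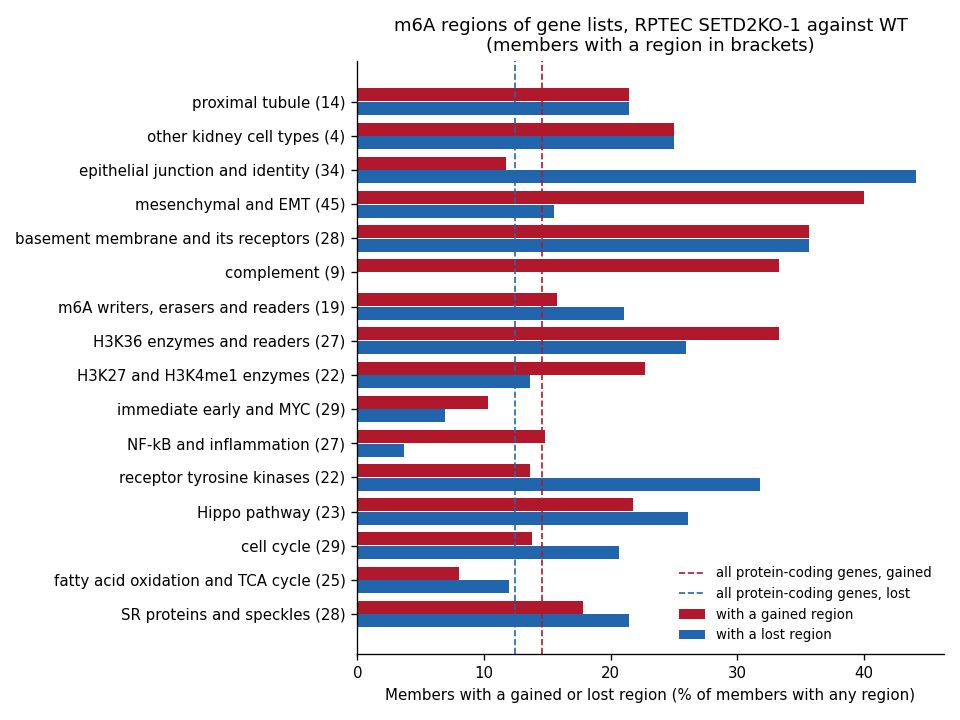
Percent of the members of each gene list that have at least 1 gained (red) or lost (blue) region, of the members with any region (their number in brackets); dashed lines give the shares over all protein-coding genes, 14.6% and 12.5%. The mesenchymal list reaches 40.0% gained and the epithelial list 44.1% lost.

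In the list of basement membrane genes and their receptors, 10 of 28 members had a gained and 10 a lost region (35.7% each), but at a median of 8 regions per member. Over regions the shares were 3.92% and 4.90%, near the background. Lost regions were in the integrin subunits ITGA6 (mean percentile 90.3), ITGB8 (86.6) and ITGA3 (85.8), and in LAMC1, HSPG2 and COL18A1. Gained regions were in LAMA4 (82.8), NID2, the linker protein nidogen 2 (73.3), LAMB1 and DST among others. Both LAMA3 and COL4A1 had 1 of each kind.

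Receptor tyrosine kinases had 7 of 22 members with a lost region (31.8%, against 12.5% of all genes) and 3 with a gained one (13.6%, against 14.6%), at a median of 5 regions per member. Over their 194 regions the shares were 4.12% lost, near the 3.76% of all regions, and 1.55% gained. The lost ones included DDR1, a collagen receptor (mean percentile 63.5), AXL (63.1) and EGFR (27.4), and the gained ones MET, the receptor of hepatocyte growth factor (63.8), EPHB2 and FGFR1, with MET and FGFR1 holding a lost region too. In the Hippo list, 5 of 23 members had a gained region (21.7%, against 14.6% of all genes) and 6 a lost one (26.1%, against 12.5%). These members had a median of 8 regions, and the shares were 5.65% and 5.22% of 230 regions, against 4.50% and 3.76%. Lost regions were in NF2 (71.1) and WWTR1 (62.5) and gained ones in PTPN14 (58.6), WWC2 (51.0), AMOTL1 (41.4) and FAT4 (40.4). Of 9 complement genes with a region, the regulators CD46, CD55 and CLU had a gained region (33.3%, against 14.6% of all genes) and no member a lost one, and none of the 3 had a peak in WT. Each had 1 or 2 peaks per SETD2KO-1 library.

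Among genes of the m6A machinery, 3 of 19 members had a gained region (15.8%, against 14.6% of all genes) and 4 a lost one (21.1%, against 12.5%). Over regions the shares were 3.13% and 4.17% of 96, against 4.50% and 3.76%. METTL3 had no peak in any of the 4 libraries. The readers YTHDF3 (mean percentile 92.5) and YTHDC1 (35.1) had a gained region and IGF2BP2 (83.8), FTO, an m6A eraser (44.6), and YTHDF2 (21.0) a lost one, while IGF2BP3 had both. FTO had 3 and 3 peaks in WT and 5 and 4 in SETD2KO-1, so its number of peaks was not lower.

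Among H3K36 methyltransferases, demethylases and readers, 9 of 27 members had a gained and 7 a lost region (33.3% and 25.9%), but 5.34% of 206 regions each, near the background. SETD2 itself had 7 and 10 peaks in WT and 6 and 4 in SETD2KO-1, 4 and 5 in SETD2KO-2 and 11 and 10 in SETD2KO-1R. Its lost regions lay at chr3:47137813-47138759 (percentiles 62.4 and 47.9 in WT) and chr3:47160231-47160607 (44.6 and 97.5), and both were called in both SETD2KO-1R and in 1 SETD2KO-2 library. The transcript therefore still had peaks in the knockout clone, and a peak list does not check the label. SETD2KO-1R also carries an added copy of SETD2, and the peaks called there were not divided between that copy and the gene itself. HDGFL2, a reader of H3K36 methylation, had 2 gained regions (mean percentile 95.1). The H3K36 demethylase KDM4A had 1 gained region (70.7), MTF2, a Polycomb reader, a lost one (83.8) and SUPT6H the lost one given above.

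POU2F2, a transcription factor best known from B cells, had 1 and 1 peaks in WT and 5 and 7 in SETD2KO-1, with 5 and 2 in SETD2KO-2 and 1 and 0 in SETD2KO-1R. Its gained regions lay at chr19:42088562-42089160 (percentiles 83.6 and 78.5) and chr19:42089393-42090406 (48.5 and 42.0), both within the gene (42086110 to 42197936). Both SETD2KO-1 libraries had more POU2F2 peaks than either WT library.

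The other lists were not all near the shares of all genes. Those were 14.6% gained and 12.5% lost by member, and 4.50% and 3.76% by region. SR proteins and speckle proteins had 5 of 28 members gained and 6 lost (17.9% and 21.4%), and 3.62% and 6.52% of their regions. The gained regions of SRPK1 (mean percentile 99.4), BCLAF1 (99.2), SRSF4 (96.5) and SON (93.9) had high ranks. For the H3K27 and H3K4me1 enzymes the counts were 5 and 3 of 22 (22.7% and 13.6%), and 4.07% and 2.44% of regions. In that list EP300, a histone acetyltransferase, was gained at 96.2 and its paralog CREBBP lost at 56.1. Members of the cell cycle list had 4 gained and 6 lost of 29 (13.8% and 20.7%), and 5.31% and 6.19% of regions. Immediate early genes had 3 and 2 of 29 (10.3% and 6.90%), and 5.80% and 2.90% of regions. NF-kB and inflammation genes had 4 and 1 of 27 (14.8% and 3.70%), and 4.63% and 1.85% of regions. Among the latter, TNFRSF11B, the decoy receptor osteoprotegerin, was gained at 91.2. Fatty acid oxidation and tricarboxylic acid cycle genes had 2 and 3 of 25, and 2.27% and 3.41% of regions.

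The lists were checked against markers of the labelled cell type, for which a peak shows that a transcript was present and a missing peak does not show that it was absent. Peaks lay in 14 of 27 proximal tubule genes, among them PAX8 (12 and 11 in WT, 9 and 18 in SETD2KO-1), a transcription factor of the kidney lineage. The defining endocytic receptors and transporters LRP2, CUBN, SLC34A1 and SLC5A2 had none in any RPTEC library. Of the 14 members, 3 had a gained and 3 a lost region, 21.4% each, against 14.6% and 12.5% of all genes. PAX2, another such factor, had 2 lost regions and 19 and 9 peaks in WT against 4 and 17 in SETD2KO-1, which overlapped. GGT1, a brush border peptidase, had 1 lost region and 3 and 3 peaks against 1 and 2. CDH6, a cadherin of the developing proximal tubule, had 5 and 4 peaks in WT and 10 and 11 in SETD2KO-1 and held 4 gained regions. Of 21 markers of other kidney cells 4 had a region. The endothelial markers PECAM1 and KDR, the podocyte marker NPHS1 and the leukocyte marker PTPRC had no peak. However, the endothelial marker CDH5 had a lost region (mean percentile 63.6), with 1 and 1 peaks in WT, 0 and 0 in SETD2KO-1 and 1 and 1 in SETD2KO-1R. The summed peaks of those 21 genes were 4 and 3 in WT and 5 and 8 in SETD2KO-1, and the part of other cells in the mesenchymal counts was not tested further.

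The gained regions were called in other RPTEC lists at shares that varied with the library. SETD2KO-2 called 47.6% and 28.2% of them and SETD2KO-1R 42.5% and 37.4%. Of the lost regions, SETD2KO-2 called 26.2% and 33.9% and SETD2KO-1R 31.9% and 49.3%. Of the regions shared by all 4 libraries, 77.3% to 92.2% were called in each of these lists, and of all 52681 regions 28.5% to 44.3%. In replicate 1 of SETD2KO-2 the gained share exceeded the lost share, in replicate 2 it was below it, and the same held for the replicates of SETD2KO-1R. A single list therefore did not give an order of the lines. Processed in the same way, RPTEC SETD2KO-2 against the same WT libraries gave 1525 gained and 2163 lost of 48637 regions (3.14% and 4.45%). Of the regions on X in that comparison, 5.54% were gained and 1.96% lost. The comparison of 786-O SETD2KO-1 with its WT gave 3132 gained and 2373 lost of 61607 regions (5.08% and 3.85%), and of its regions on X 6.31% were gained and 2.85% lost.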

How the data were processed

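MeRIP-seq m6A peak lists of 4 RPTEC libraries, 2 WT and 2 SETD2KO-1, were compared. The 12 further lists of the series were used for calls, whole-list shares and comparisons of the same kind. Input libraries were not analysed here. Per the study's methods and labels, an E. coli RNA spike-in was added, reads were aligned with STAR to hg38, and peaks were called per library against Input with MACS2. The deposited lists give each peak a whole-number score of unstated scale and a summit offset (signal, p and q columns hold only 0). Scores were used as percentiles within a list.

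Peaks that overlapped by at least 1 bp were merged, and a region belonged to each gene body (RefSeq, GRCh38.p14, coordinates of the same hg38 assembly) that held its midpoint. The calls were tested on simulated lists. Python 3 with NumPy, pandas and SciPy was used. Library values were compared by a two-sided exact permutation test over 6 arrangements, which treats the 2 samples of a line as replicates; nothing says that they were separate cultures. Genes named are those with the most gained or lost regions (8 per class; 5 with both), the 6 highest-ranked regions per class, up to 4 members per list and class by rank, and SETD2, METTL3, POU2F2 and MAL; all others (further list members, whole-gene switches, runs, chromosome X) were chosen after their values were seen. Members and lists were chosen with earlier results of these data known. Alternatives were score, length, merging, call and library choices.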

Additional observations from a re-analysis of the deposited data

How the results depend on the processing

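The counts of gained and lost regions were within 1.5 times under merging at 100 bp, 50% coverage, a summit call, regions merged over 8 lists, a minimum length of 270 bp, equal list sizes and a distance of 1 kb to the other side (1948 to 2698 gained, with 2161 at 1 kb, and 1559 to 2087 lost). The upper 50% of each list by score gave 1182 gained and 1022 lost regions in 879 and 824 protein-coding genes, and bins of 200 bp gave 6145 and 4953 bins. With 1 of the 4 libraries left out, 3666 to 11787 regions were gained and 3194 to 8061 lost. The gained count was highest without SETD2KO-1 replicate 1 (11787), then without SETD2KO-1 replicate 2 (8653), WT replicate 1 (5307) and WT replicate 2 (3666), because a single library then decides the call. Genes with a gained region then numbered 2217 to 5323 and those with a lost one 2233 to 4339, and whole genes with peaks in SETD2KO-1 alone 711 to 1134 and in WT alone 552 to 761. With 1 library left out, the mesenchymal list had 20 to 33 gained and 10 to 22 lost members (20 gained and 22 lost without WT replicate 2, where 2217 genes had a gained and 4339 a lost region) and the epithelial list 4 to 12 gained and 16 to 21 lost members. With the upper 50% by score the epithelial list had 9 lost members, of 28 with a region, and the mesenchymal list 15 gained and 8 lost members, of 42, where 9.47% of all genes had a gained and 8.88% a lost region.

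The log2 ratio of peaks was -0.034 with the minimum length and ran from -0.029 to 0.29 with a library left out. The log2 ratio of genes with a peak was -5.5e-05 with the minimum length and ran from -0.0012 to 0.13. The difference in median length was 18.5 bp with the minimum length, 1.5 bp with equal list sizes and 1 bp for the upper 50% by score, and ran from -26.5 to 16.5 bp. The direction of these values is thus not settled. The percent of peaks in protein-coding genes kept its sign in every alternative run (-5.22 to -1.56), as did that on X (1.31 to 1.67, and 1.37 over all 8 RPTEC libraries).

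The share of gained regions called by a summit was 44.2% and 26% in SETD2KO-2 and 40.4% and 34.9% in SETD2KO-1R, and that of lost regions 29.6% in SETD2KO-1R replicate 1. For the upper 50% by score it was 25% of the gained and 36.4% of the lost regions in SETD2KO-2 replicate 2 and 40.6% of the gained ones in SETD2KO-1R replicate 2.

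The labels number the replicates 1 and 2 in both lines, but nothing says that a number marks a shared batch. A replicate block gave 2696 gained and 1947 lost regions and differences of 0.13, 0.06, -5.00, -3.39 and 1.49, identical by construction. The cause of the other movements was not tested. Depth is unknown, so a missing call cannot be told apart from too few reads.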
